A study of Mus musculus with 12 samples.

Results

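Collagens are the triple-helical proteins that form the connective tissue around and between muscle fibres. The genes described here are the measured mouse genes named with Col, a chain family number, the letter a and a chain number. They were 43 of the 19519 genes tested, and 11 of them encode fibrillar collagens, 8 encode collagens of the basement membrane and 24 encode other collagens. The genes were measured in whole gastrocnemius, a limb muscle, and in whole heart of mice bearing tumours of C26, a mouse colon carcinoma cell line whose growth brings on cachexia (wasting in cancer), and of control mice without a tumour, labelled NTB for non-tumour-bearing. All mice were Balb/c-DBAj hybrids aged 10 to 11 weeks. C26 mice had received tumour cells under the skin of the flank, and NTB mice had received 100 µl of the carrier medium, RPMI with penicillin and streptomycin. Each of the 4 groups (C26 gastrocnemius, NTB gastrocnemius, C26 heart and NTB heart) had 3 arrays, which the design text calls biological replicates. The time of tissue collection and the tumour burden are not given in the sources used here. The muscles were taken from different cohorts of mice, so a difference between muscles cannot be told apart from a difference between cohorts. Whole muscle holds fibres, fibroblasts, vessels, nerve and attached tendon together, and fewer cells of a type and less RNA per cell cannot be told apart in such samples.

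Fibrillar collagens (types I, III, V, XI and related types) are secreted as procollagens, trimmed outside the cell and packed into fibrils that carry tension. Type IV collagen forms the network of the basement membrane around each muscle fibre and capillary, type VI forms beaded microfilaments between that membrane and the fibrils, and FACIT collagens such as type XII sit on the surface of fibrils. In muscle these genes are expressed mainly by fibroblasts and related connective tissue cells, with tendon a rich source of type I, and type IV is also made by muscle and endothelial cells. All values below are deposited log2 expression values after RMA, a normalization that also summarises the probes of a transcript. Changes are C26 minus NTB differences of log2 means with their standard error (SE) after ±, and a gene is said to have risen or fallen where the adjusted p of limma over all 19519 genes was under 0.05. The number of arrays limits the precision of every value.

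The array medians lay between 5.93 and 6.09. C26 gastrocnemius replicate 3 stood apart from the other replicates of its group, with correlations over all genes of 0.954 and 0.958 against 0.986 between the other two, so counts of calls in gastrocnemius are also given without it. Skeletal muscle and cardiomyocyte marker genes fitted the labels, as all 8 of each list differed between the NTB muscles in the direction of their tissue. Olfactory receptor genes, which serve mainly in the nose, had 95th percentiles between 5.77 and 5.995 in the 4 groups, and collagens whose group mean lay below the percentile of that group are called dim there. Col4a6, Col10a1 and Col19a1 were dim in all 4 groups, so their levels were not told apart from background.

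In C26 gastrocnemius 12 of the 43 collagen genes fell and 0 rose. Those that fell were 27.9% of the collagens, against 5.42% of all genes tested that fell and 6.42% that rose (11.8% in all). The largest falls were those of the type I chains Col1a1 (5.82-fold) and Col1a2 (4.64-fold), the main collagen of tendon and of the muscle's own connective tissue, and of Col3a1 (2.71-fold), the chain of the thinner type III fibrils. The 3 main type VI chains Col6a1, Col6a2 and Col6a3 and the FACIT collagen Col12a1 also fell, whereas the main basement membrane chains Col4a1 and Col4a2 were not called. The median change was -0.21 over the collagens and -0.0031 over all genes. In C26 heart 1 collagen rose, Col6a3, and 0 fell. At an unadjusted p under 0.05 by limma, 18 collagens were lower and 0 higher in C26 gastrocnemius, against 9.88% of all genes lower and 11.7% higher there. In C26 heart 1 was lower and 6 were higher at that p, against 5.33% and 6.76% of all genes.

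The 250 bases before the transcription start are shown for the 4 genes with the largest falls in gastrocnemius that the RefSeq promoter table (GRCm38.p6) held. The table held 35 of the 43 collagens. Capitals mark CCAAT (the CCAAT box), GGGCGG (the GC box, bound by Sp1) and TATAAA (the TATA box) on either strand. No pair of these motifs overlapped in the windows shown. The windows lie at chr6:4505368-4505617 on the plus strand for Col1a2, chr1:45311288-45311537 on the plus strand for Col3a1, chr10:76726045-76726294 on the minus strand for Col6a1 and chr1:90843972-90844221 on the minus strand for Col6a3, and each is written 5′ to 3′ along its gene.
Col1a2: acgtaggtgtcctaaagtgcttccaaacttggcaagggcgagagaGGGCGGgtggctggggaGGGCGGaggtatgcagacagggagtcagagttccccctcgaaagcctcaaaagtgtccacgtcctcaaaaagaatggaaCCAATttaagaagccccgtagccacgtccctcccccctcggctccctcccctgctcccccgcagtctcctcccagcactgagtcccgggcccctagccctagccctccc
Col3a1: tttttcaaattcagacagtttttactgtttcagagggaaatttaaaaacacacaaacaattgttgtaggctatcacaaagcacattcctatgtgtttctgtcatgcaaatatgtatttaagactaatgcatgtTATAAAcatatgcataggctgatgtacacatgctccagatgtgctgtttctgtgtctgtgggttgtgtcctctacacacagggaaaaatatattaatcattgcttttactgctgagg
Col6a1: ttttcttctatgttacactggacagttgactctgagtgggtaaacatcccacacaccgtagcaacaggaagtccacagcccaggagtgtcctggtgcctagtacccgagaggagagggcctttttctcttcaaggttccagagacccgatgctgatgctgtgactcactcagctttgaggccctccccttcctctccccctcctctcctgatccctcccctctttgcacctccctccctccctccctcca
Col6a3: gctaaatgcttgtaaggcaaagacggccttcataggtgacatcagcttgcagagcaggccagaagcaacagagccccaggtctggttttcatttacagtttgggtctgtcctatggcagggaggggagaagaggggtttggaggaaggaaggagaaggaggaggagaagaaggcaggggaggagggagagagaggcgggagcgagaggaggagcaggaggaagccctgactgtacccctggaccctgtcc
Col1a2 held GGGCGG with first bases 205 and 188 before the start and CCAAT 109 before the start. Col3a1 held TATAAA 117 before the start, and the windows of Col6a1 and Col6a3 held none of these letters. Among the 9 collagens that fell and had a promoter in the table, 3 held the CCAAT box, 5 the GC box and 1 the TATA box. Of the 26 that did not fall, 10, 16 and 4 did. Of all 32851 promoters of the same length, 33.8%, 32.7% and 12.4% did. A match is a description, not a binding site.

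Col1a1 levels were 10.31, 11.67 and 10.86 in NTB gastrocnemius and 8.25, 8.47 and 8.49 in C26 gastrocnemius. Col1a2 levels were 10.58, 11.52 and 10.76 in NTB and 8.71, 8.83 and 8.67 in C26. All C26 arrays lay below all NTB arrays for both chains, and the NTB arrays differed among themselves more than the C26 arrays did, with SDs of 0.69 and 0.50 in NTB against 0.13 and 0.09 in C26. Col1a1 fell by 2.54 ± 0.25 (adjusted p = 8.15e-06). Col1a2, whose chain joins a pair of Col1a1 chains in each type I molecule, fell by 2.21 ± 0.19 (adjusted p = 2.58e-06). For Col3a1 the levels were 9.004, 9.98 and 9.29 in NTB and 7.87, 7.95 and 8.14 in C26, again without overlap, and it fell by 1.44 ± 0.21 (adjusted p = 2.73e-04). NTB replicate 2 was the highest NTB array for these 3 genes. Over all alternatives, arrays left out included, the change lay between -2.86 and -2.18 for Col1a1, between -2.40 and -1.93 for Col1a2 and between -1.65 and -1.16 for Col3a1, and the 3 calls were kept.

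The type V and XI chains, which join type I molecules in fibrils and set how thick they grow, had smaller falls. Col5a1 had levels of 7.54, 7.50 and 7.36 in NTB and 6.95, 6.99 and 6.80 in C26, and fell by 0.55 ± 0.12 (adjusted p = 0.00629). Col5a2 was at 6.92, 7.23 and 6.85 against 6.34, 6.50 and 6.57, and fell by 0.53 ± 0.13 (adjusted p = 0.0118). Col11a1 was at 6.71, 6.70 and 6.71 against 6.17, 6.07 and 6.32, and fell by 0.52 ± 0.11 (adjusted p = 0.00666). None of the 3 had overlapping groups. Col5a3 was at 7.38, 7.27 and 7.20 against 6.96, 6.77 and 6.81, a fall of 0.43 ± 0.13 that passed by the smallest margin (adjusted p = 0.0346) and was lost under 10 of the alternatives tried. In all, 7 of 11 fibrillar genes fell, with a class median of -0.52, and the groups did not overlap for 9 of 11. Among all genes all 3 C26 arrays lay below all 3 NTB arrays for 9.42%. Without C26 replicate 3 the groups did not overlap for 10 of 11, against 19.1% of all genes. The 4 fibrillar genes that were not called were Col24a1 (-0.40, adjusted p = 0.0501), Col2a1 (-0.36), the chain of cartilage fibrils, Col11a2 (-0.33) and Col27a1 (-0.17), and all 4 were below 0.

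Col6a1, Col6a2 and Col6a3, the chains of the main type VI collagen of muscle, fell together. Col6a1 was at 8.49, 8.66 and 8.42 in NTB and 7.36, 7.40 and 7.31 in C26, and fell by 1.17 ± 0.12 or 2.25-fold (adjusted p = 1.67e-05). Col6a3 was at 8.17, 8.60 and 8.39 in NTB and 7.39, 7.39 and 7.14 in C26, and fell by 1.08 ± 0.16 (adjusted p = 3.72e-04). Col6a2 was at 8.23, 8.58 and 8.26 against 7.53, 7.81 and 7.33, and fell by 0.80 ± 0.15 (adjusted p = 0.00266). The groups did not overlap for any of these chains. The other type VI chains were not called, with changes of -0.36 for Col6a5, -0.14 for Col6a6 and 0.12 for Col6a4, which was dim in 3 groups. Col12a1, a FACIT collagen of dense connective tissue, was at 6.91, 7.23 and 6.89 against 6.02, 6.02 and 6.005, and fell by 1.00 ± 0.12 or 1.99-fold (adjusted p = 6.41e-05). The other 8 FACIT genes were not called: Col22a1, a collagen of the junction between muscle and tendon, was at 7.32, 6.90 and 6.997 in NTB and 6.71, 6.51 and 6.78 in C26, a change of -0.41 without overlap of the groups (adjusted p = 0.0843). Col9a1, Col9a2, Col9a3, Col14a1, Col16a1, Col19a1 and Col20a1 changed by between -0.27 and 0.14. Col20a1 was the 1 collagen whose C26 arrays all lay above its NTB arrays, as they did for 9.95% of all genes.

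Of the 8 basement membrane genes 1 fell, Col15a1, whose product links that membrane to the fibrils around it. This 1 call is 12.5% of the class, near the 11.8% of all genes called in gastrocnemius. Col15a1 was at 7.59, 8.01 and 7.77 in NTB and 7.20, 7.20 and 7.01 in C26, and fell by 0.65 ± 0.13 (adjusted p = 0.00284). Col4a1 was at 8.05, 8.27 and 7.999 in NTB and 8.34, 8.31 and 8.21 in C26, a change of 0.18 with a 95% interval of -0.07 to 0.44 (adjusted p = 0.464). Col4a2 was at 8.32, 8.33 and 8.32 against 8.48, 8.54 and 8.22, a change of 0.09 with an interval of -0.18 to 0.36 (adjusted p = 0.810). The NTB and C26 arrays overlapped for both chains, and the lower ends of both intervals lie above the type I falls. Endothelial cells also make type IV collagen, and 4 of 9 endothelial markers rose in C26 gastrocnemius, or 44.4%, against 6.42% of all genes. These 4 calls (Pecam1, Cldn5, Tek and Vwf) were lost with each muscle fitted alone. The mean log2 level of the 9 markers was 7.93 to 8.19 in NTB and 8.14 to 8.40 in C26, so that the groups overlapped. The part of endothelial cells in the type IV values was not tested. The starts of Col4a1 and Col4a2 are 21 bases apart on opposite strands in RefSeq. Col4a3, Col18a1, Col4a5, Col4a4 and Col4a6 changed by between -0.33 and -0.07 and were not called, and the class median was -0.13. The 9 remaining genes, none of them called, were the short-chain collagens Col8a1, Col8a2 and Col10a1, the membrane-spanning Col13a1, Col17a1, Col23a1 and Col25a1, the anchoring fibril collagen Col7a1, and Col28a1. Their changes ran from -0.41 for Col8a2 to 0.11 for Col10a1.

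**Figure D1:**
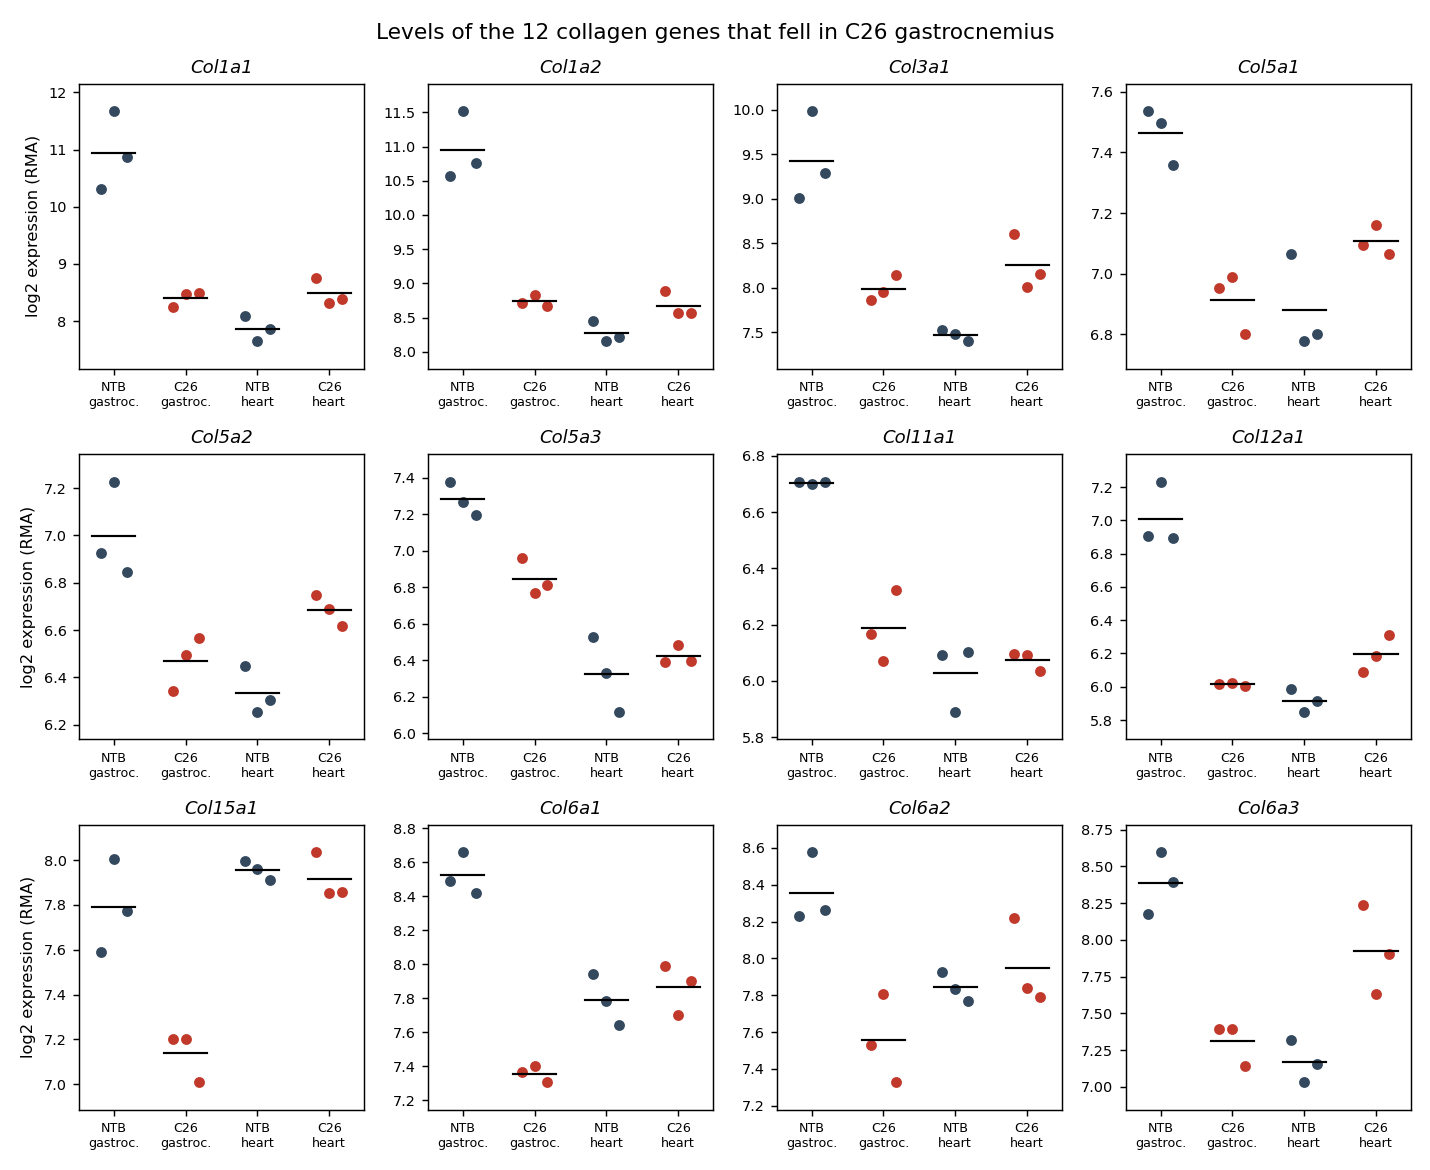
Log2 expression (RMA) of the 12 collagen genes that fell in C26 gastrocnemius, with 1 point per array and a line at each group mean. Each panel has its own scale, and in every panel the 3 C26 gastrocnemius points lie below the 3 NTB gastrocnemius points.

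The count of 12 differed between fits. The median SD of replicates over all genes was 0.206 in gastrocnemius and 0.123 in heart, and 0.162 and 0.144 over the collagens. With the gastrocnemius arrays fitted alone, 7 collagens fell and 0 rose (Col1a1, Col1a2, Col3a1, Col6a1, Col6a2, Col6a3 and Col12a1), against 2.17% of all genes that fell and 2.45% that rose in that fit (4.63% in all). Without C26 gastrocnemius replicate 3, 17 collagens fell and 0 rose, against 5.81% of all genes that fell and 11.5% that rose. Array weights for C26 gastrocnemius replicates 1, 2 and 3 were 0.571, 3.78 and 0.151, so the weighted C26 mean rested mostly on replicate 2. With these weights 21 fell and 0 rose, against 7.95% and 13.9% of all genes. The 12 falls of the joint fit were among them in both cases. With the replicate number as a block within each muscle 14 fell and 0 rose, the additions being Col24a1 and Col8a2, against 7.58% and 8.71% of all genes.

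In heart 0 of the 12 genes that fell in gastrocnemius fell. Col6a3, whose large chain completes the type VI molecule, was at 7.32, 7.03 and 7.16 in NTB heart and 8.24, 7.63 and 7.90 in C26 heart. It rose by 0.76 ± 0.16 or 1.69-fold (adjusted p = 0.0157), and C26 replicate 1 was the highest array. This 1 rise is 2.33% of the collagens, against 2.13% of all genes tested that rose and 1.1% that fell (3.22% in all), so the share was near the background. The call was lost without C26 heart replicate 1 or 3 or NTB heart replicate 2 or 3, with adjusted p values up to 0.0988 over the alternatives. Col6a1 (0.07, adjusted p = 0.923) and Col6a2 (0.11, adjusted p = 0.910) were not called.

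Col3a1 was at 7.52, 7.48 and 7.40 in NTB heart and 8.60, 8.01 and 8.16 in C26 heart, a difference of 0.79 ± 0.21 that did not pass (adjusted p = 0.0536). Col1a1 was at 8.08, 7.65 and 7.86 against 8.76, 8.31 and 8.38, a difference of 0.62 ± 0.25 (adjusted p = 0.293). Col1a2 was at 8.45, 8.16 and 8.22 against 8.89, 8.57 and 8.57, a difference of 0.40 ± 0.19 (adjusted p = 0.433). The C26 arrays all lay above the NTB arrays for these 3 genes and for Col6a3, Col5a2, Col12a1, Col4a1 and Col9a1, which makes 8 of 43 collagens against 14.2% of all genes. They lay below for 3 collagens, Col4a4, Col24a1 and Col8a1, against 13.4% of all genes. The class medians were 0.15 for fibrillar, 0.0015 for basement membrane and 0.05 for other collagens, and the 42 collagens not called ranged from -0.46 (Col8a1) to 0.79 (Col3a1).

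With the heart arrays fitted alone, 5 collagens rose (Col3a1, adjusted p = 0.00142, Col6a3, 0.00271, Col1a1, 0.00719, Col1a2, 0.0273, and Col5a2, 0.0368), against 5.88% of all genes that rose in that fit. Col8a1, a short-chain collagen of vessel walls and valves, fell by 0.46 ± 0.11 there (adjusted p = 0.0177), against 5.46% of all genes. Its levels were 8.53, 8.48 and 8.32 in NTB heart and 8.25, 7.89 and 7.81 in C26 heart, and the gene is named here because of these values. The sizes of these changes are those of the joint fit, and their standard errors are smaller than in it. The joint fit thus called more collagens in gastrocnemius than in heart by 12 to 1, and the separate fits by 7 to 6. With the replicate number as a block within each muscle, Col1a1 (adjusted p = 0.0479) and Col3a1 (adjusted p = 0.0123) rose in heart beside Col6a3, and Col8a1 fell, against 3.21% of all genes that rose and 1.99% that fell. The numbers showed no sign of pairing the heart arrays.

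**Figure D2:**
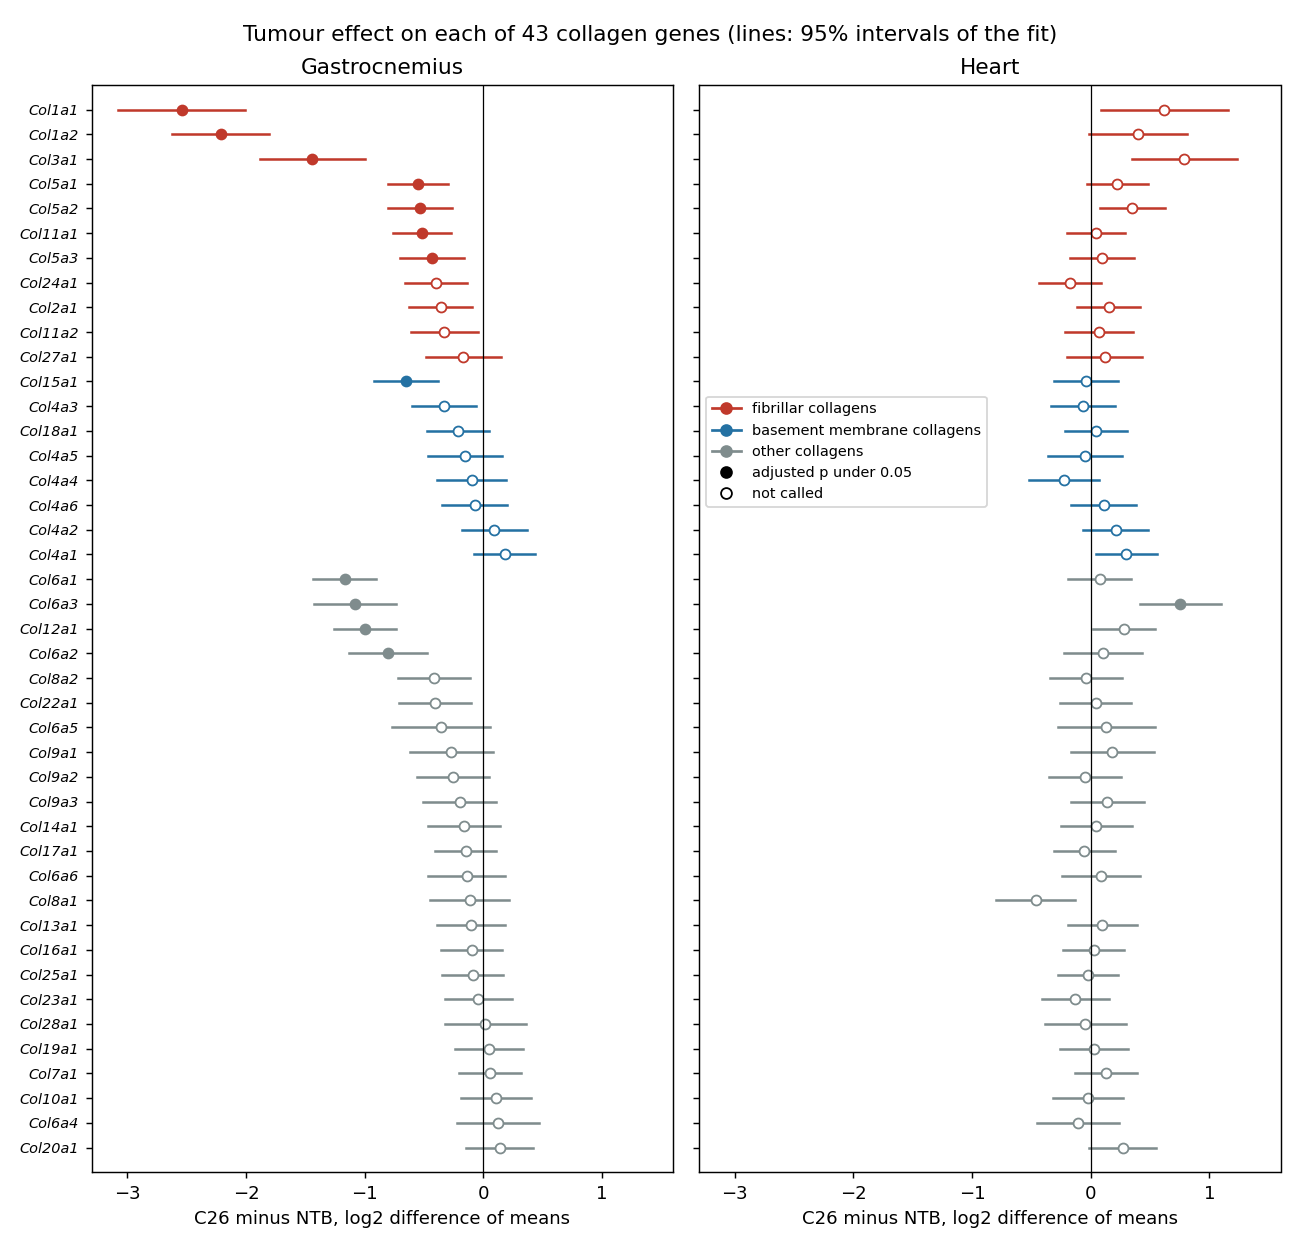
C26 minus NTB differences of log2 means for the 43 collagens in gastrocnemius (left) and heart (right), with 95% intervals of the joint fit, coloured by class and filled where the adjusted p was under 0.05. The 12 filled points in gastrocnemius all lie left of 0, and the 1 filled point in heart, Col6a3, lies right of 0.

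The tumour effects differed between the muscles for 9 of the 43 collagens, or 20.9%, and all 9 differences were lower in gastrocnemius, against 2.01% of all genes lower and 1.98% higher there (4% in all). The difference, gastrocnemius effect minus heart effect, was -3.16 ± 0.35 for Col1a1 (adjusted p = 1.09e-04), -2.61 ± 0.27 for Col1a2 (adjusted p = 6.39e-05) and -2.23 ± 0.29 for Col3a1 (adjusted p = 4.18e-04). For Col6a3 it was -1.84 ± 0.23 (adjusted p = 2.58e-04), as this gene fell in one muscle and rose in the other. For Col12a1, Col6a1, Col6a2, Col5a2 and Col5a1 it was -1.27, -1.24, -0.91, -0.88 and -0.77. Col15a1 was at 7.998, 7.96 and 7.91 in NTB heart and 8.04, 7.86 and 7.86 in C26 heart, and its difference of -0.61 did not pass (adjusted p = 0.0768). For Col4a1 and Col4a2 the differences were -0.12 with intervals of -0.48 to 0.24 and of -0.51 to 0.27. The call for Col6a2 was lost under 8 of the alternatives and that for Col5a1 under 3. The muscles share no arrays, but they also differ in cohort.

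**Figure D3:**
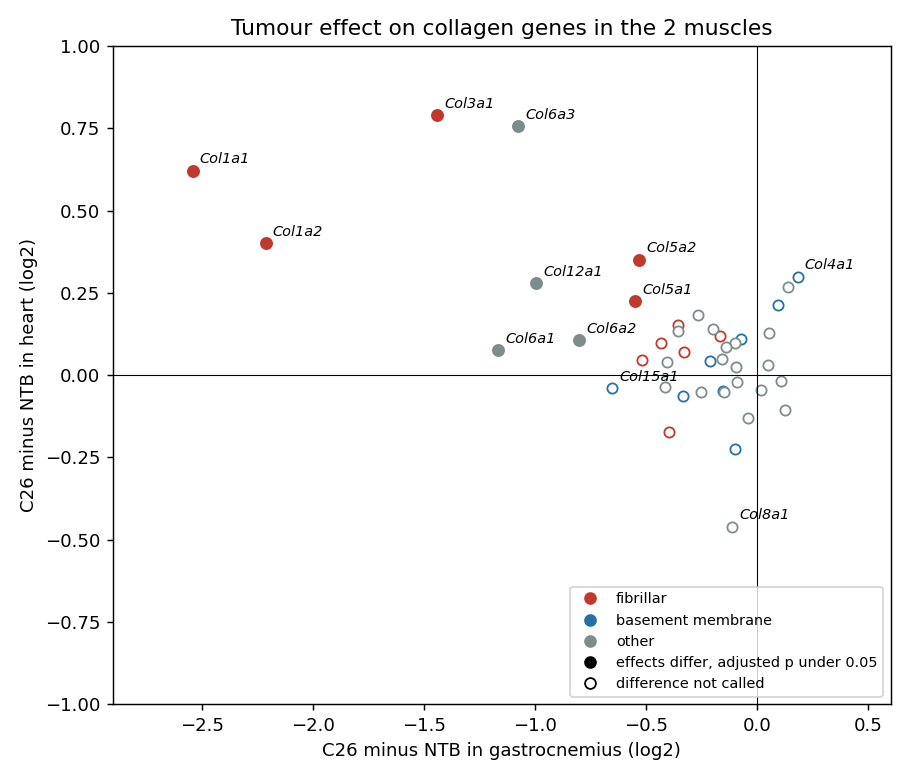
The C26 minus NTB log2 difference of each of the 43 collagens in gastrocnemius (horizontal) against heart (vertical), filled where the 2 effects differed with an adjusted p under 0.05. The 9 filled genes lie at the upper left, below 0 in gastrocnemius and above 0 in heart, while Col4a1 lies above 0 in both muscles without a call.

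In NTB mice 25 collagens were lower in heart than in gastrocnemius and 2 were higher, against 15.8% and 24.8% of all genes (40.6% in all). Col1a1 was 8.47-fold lower in NTB heart (-3.08 ± 0.25, adjusted p = 1.08e-07), Col1a2 was 6.39-fold lower (-2.68 ± 0.19) and Col3a1 was 3.89-fold lower (-1.96 ± 0.21). Of the 12 collagens that fell in C26 gastrocnemius, 11 were lower in NTB heart than in NTB gastrocnemius, the exception being Col15a1 (0.17, adjusted p = 0.333). Col12a1 was dim in NTB heart. The mean Col1a1 level in C26 gastrocnemius was 8.404, beside 7.86 in NTB heart and 8.48 in C26 heart. The same NTB gastrocnemius arrays enter both comparisons. The 2 collagens higher in NTB heart were Col8a1 (3.92-fold, 1.97 ± 0.16, adjusted p = 8.25e-08) and the basement membrane chain Col4a5 (0.52 ± 0.15, adjusted p = 0.00934).

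The related lists were read against the same shares of all genes, which were 5.42% lower and 6.42% higher in gastrocnemius (11.8% in all) and 1.1% lower and 2.13% higher in heart (3.22% in all), or 4.63% and 11.3% in all with each muscle fitted alone. Most enzymes and chaperones that fold and hydroxylate procollagen in the cell were not called. Of 20 such genes in gastrocnemius 1 rose, P4hb (0.60 ± 0.11), the shared subunit of prolyl 4-hydroxylase that also serves other secreted proteins, and 1 fell, Creb3l1 (-0.48 ± 0.14), a transcription factor for collagen genes in bone. These 2 calls are 10% of the list, near the share of all genes. In heart P4ha3 (0.73 ± 0.12) and P4hb (0.48 ± 0.11) rose and 0 fell. Of 12 genes that trim propeptides and crosslink fibrils, Lox rose in both muscles while Loxl2, Pcolce and Pcolce2 fell in gastrocnemius. Lox, the oxidase that starts the crosslinks of fibrillar collagen, was at 6.45, 6.38 and 6.07 in NTB and 7.75, 7.51 and 7.13 in C26 gastrocnemius, and rose by 1.16 ± 0.17 (adjusted p = 3.20e-04). In heart it was at 5.47, 5.52 and 5.66 against 6.73, 7.11 and 7.20, and rose by 1.47 ± 0.17 (adjusted p = 1.62e-04). Its mean in NTB heart lay below the olfactory percentile, as did that of P4ha3. Lox thus moved against Col1a1 in gastrocnemius, with no overlap between its groups in either muscle. Pcolce, which speeds the trimming of the C-propeptide of fibrillar procollagens, fell by 0.69 ± 0.16 in gastrocnemius and rose by 0.69 ± 0.16 in heart, and Adamts2, which removes their N-propeptide, rose by 0.85 ± 0.16 in heart. With each muscle fitted alone, gastrocnemius had 1 rise and 0 falls in this list and heart 7 rises and 1 fall, while the folding list had 0 calls in gastrocnemius and 7 rises in heart.

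Of 15 proteins that bind fibrils and shape their assembly, 8 fell in gastrocnemius and 0 rose, against 5.42% and 6.42% of all genes, with a median of -0.71. Keratocan (Kera, -2.61), fibromodulin (Fmod, -1.99) and lumican (Lum, -1.02), which are small leucine-rich proteoglycans on fibrils, and Sparc (-0.82), a collagen chaperone of the matrix, were those with the smallest p. Dermatopontin (Dpt), the 1 gene of this list that rose in heart (1.06 ± 0.20), had fallen in gastrocnemius (-1.19 ± 0.20). Of 10 basement membrane partners of type IV collagen, Nid2 (-0.69), Nid1 (-0.57) and Hspg2 (-0.64) fell in gastrocnemius while Col4a1 and Col4a2 were not called, and 0 were called in heart. Of 9 collagen receptors Itga11 (-0.56), a fibroblast integrin subunit for fibrillar collagen, fell in gastrocnemius, and this 1 call is 11.1% of the list, near the share of all genes. In heart Ddr2 (0.73), a receptor tyrosine kinase for fibrillar collagen, and Mrc2 (0.54), which binds collagen for uptake, rose. Calls for P4hb, Pcolce, Ddr2 and Mrc2 in heart and for Creb3l1, Pcolce2 and Itga11 in gastrocnemius were each lost under 7 or more alternatives. With each muscle fitted alone, gastrocnemius had 6 falls among the fibril partners, 1 among the basement membrane partners and 0 calls among the receptors, and heart had 6 rises and 2 falls, 2 rises, and 3 rises in these lists. The shares of all genes called in these fits were 4.63% and 11.3%.

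Of 19 genes of collagen breakdown and its inhibitors, 3 rose and 3 fell in gastrocnemius, and 8 rose and 0 fell in heart. These calls are 31.6% and 42.1% of the list, against 11.8% and 3.22% of all genes. In gastrocnemius the lysosomal protease Ctsl rose by 1.79 ± 0.11 and the matrix protease Mmp3 by 1.58 ± 0.27, while the aggrecanase Adamts5 (-0.66) and the protease inhibitor Timp2 (-0.59) fell. Ctsl and Mmp3 also rose in heart, by 0.79 (adjusted p = 8.62e-04) and 1.88 (adjusted p = 8.38e-04). The effects on Ctsl differed between the muscles (1.00, adjusted p = 0.00236). Mmp14 rose by 0.69 in gastrocnemius, a call lost under 5 alternatives, and by 1.09 in heart. The means of Mmp3 in NTB gastrocnemius and in NTB heart lay below the olfactory percentile. In heart the gelatinase Mmp2 was at 9.30, 9.16 and 9.19 in NTB and 10.67, 10.42 and 10.54 in C26, and rose by 1.33 ± 0.16 (adjusted p = 1.62e-04). Timp1, an inhibitor of such proteases, was at 5.54, 5.49 and 5.44 against 8.17, 6.71 and 7.44 there, and rose by 1.95 ± 0.27. Its mean in NTB heart lay below the olfactory percentile. Mmp2 was at 8.92, 9.33 and 8.61 in NTB and 8.92, 9.15 and 8.92 in C26 gastrocnemius, so that the gene was called in heart and its groups overlapped in gastrocnemius, and its effects differed (-1.28, adjusted p = 0.00363). With each muscle fitted alone, 2 genes of this list rose and 0 fell in gastrocnemius, and 10 rose and 1 fell in heart. Of all genes 4.63% and 11.3% were called in these fits. Without C26 gastrocnemius replicate 3, gastrocnemius had 2 rises and 1 fall in the folding list, 1 rise and 2 falls in the trimming and crosslinking list, 1 rise and 9 falls among the fibril partners, 2 falls among the basement membrane partners, 1 rise among the receptors and 4 rises and 2 falls among the breakdown genes, against 11.5% of all genes that rose and 5.81% that fell. In heart, whose fit shares its spread with that array, these lists then had 4 rises, 5 rises and 1 fall, 3 rises and 1 fall, 0 calls, 3 rises and 9 rises. Calls in heart over all 19519 genes also grew, from 629 with that array to 1148 without it.

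**Figure D4:**
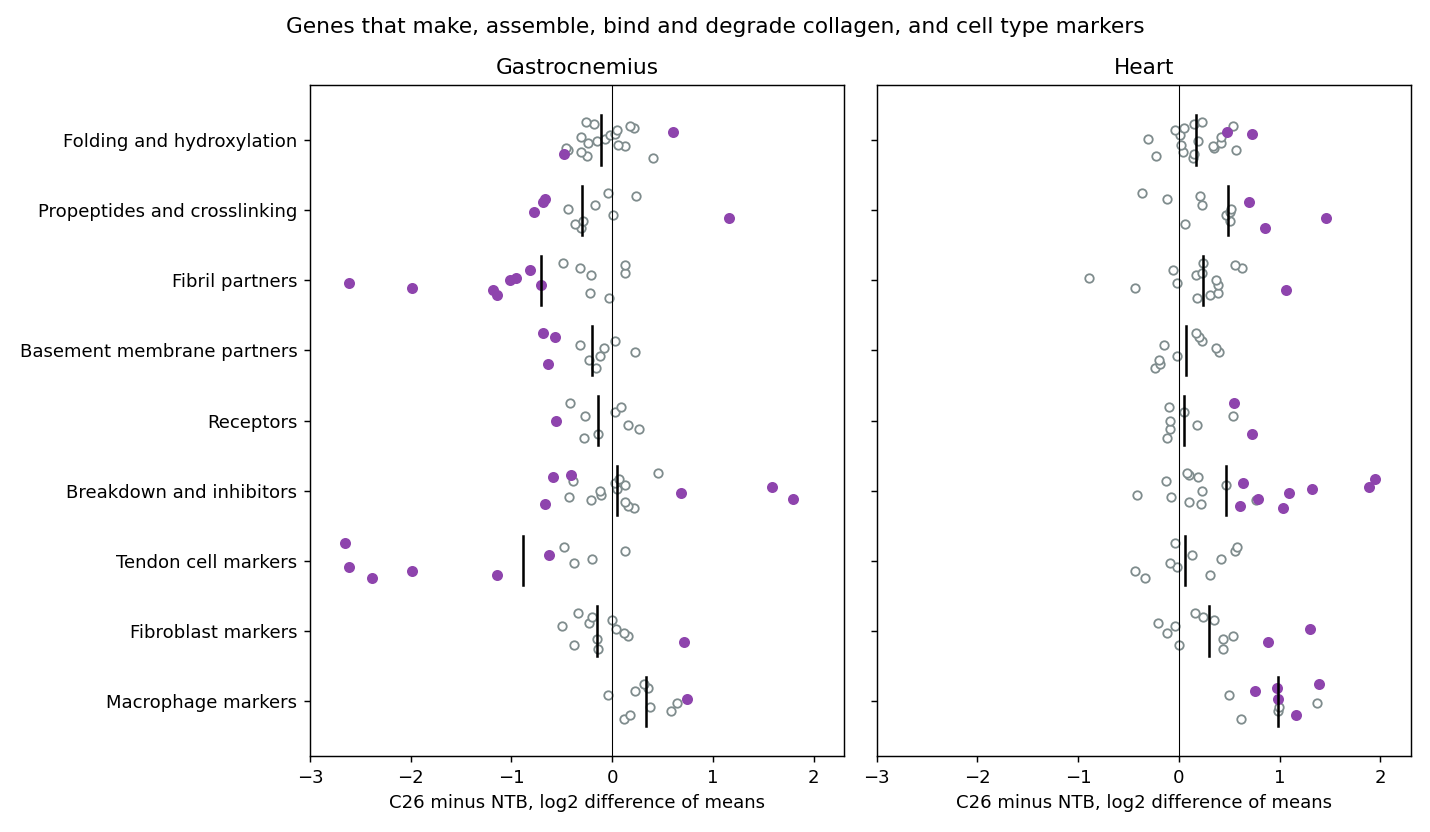
C26 minus NTB log2 differences of the genes that fold, trim, assemble, bind and degrade collagen and of tendon, fibroblast and macrophage markers, with 1 point per gene, filled where the adjusted p was under 0.05, and a bar at each median. The fibril partners and tendon markers reach furthest to the left in gastrocnemius, and the breakdown genes and macrophage markers lie mostly right of 0 in heart.

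Markers of other cell types were read beside the collagens and against the same shares of all genes. These were 5.42% lower and 6.42% higher in gastrocnemius (11.8% in all), and 1.1% lower and 2.13% higher in heart (3.22% in all). Calls in gastrocnemius were 60% of the tendon list and 60% of the blood list. They were 8.33% of the fibroblast, 10% of the macrophage and 14.3% of the adipocyte list, near the share of all genes. Of 10 tendon cell markers 6 fell in gastrocnemius, with a median of -0.89, and their mean log2 level was 7.57 to 7.99 in NTB and 6.20 to 6.78 in C26. Tenomodulin (Tnmd), a defining tendon gene, was at 7.69, 8.19 and 7.83 in NTB and 5.71, 5.24 and 4.79 in C26, and the latter mean lay below the olfactory percentile, as did those of Kera and Tnc. Replicate 2 was the highest NTB gastrocnemius array for Tnmd, Kera and Chad as for Col1a1, Col1a2 and Col3a1. The same held for Fmod, Comp, Mkx, Thbs4 and Ptgis. For Scx it was the lowest, at 6.78 beside 7.01 and 6.94, and Tnc was highest in replicate 3 (6.25). This order was not particular to tendon markers. Among the fibroblast markers, replicate 2 was also the highest NTB gastrocnemius array for Pdgfra, Pdgfrb, Tcf21, Pi16, Ly6a, Vim, Postn and Gsn. It was not the highest for Thy1, S100a4, Mfap5 and Clec3b. Kera, Fmod, Comp and Thbs4 stand in the fibril partner list too. In gastrocnemius 1 of 12 fibroblast markers rose, Ly6a (0.71, adjusted p = 0.0296), a call lost under 7 of the alternatives, and 0 fell. Of the 12 changes 8 were below 0 and 4 above, with a median of -0.15. For 2 of 12, Vim and Postn, all C26 arrays lay below all NTB arrays, or 16.7%, against 9.42% of all genes. The mean levels of the list were 7.65 to 7.98 in NTB and 7.69 to 7.84 in C26, so that the general fibroblast list overlapped between the groups. The part of tendon tissue in the gastrocnemius falls was not tested. In heart 0 of 10 tendon markers were called, 2 of 12 fibroblast markers rose with mean levels of 8.47 to 8.55 in NTB and 8.73 to 8.96 in C26, and 5 of 10 macrophage markers rose (9 without C26 gastrocnemius replicate 3) with mean levels of 7.76 to 7.98 and 8.79 to 8.84. The macrophage calls of C1qa, Itgam and Mrc1 were lost under 6, 6 and 7 alternatives, and those of Cd68 and Lyz2 under 0. Of the fibroblast calls Ly6a was lost under 7 and Pi16 under 0. Over all genes heart had 1148 calls without that array, against 629 with it. The part of tendon cells, fibroblasts and macrophages in the heart values was not tested. In gastrocnemius 1 of 7 adipocyte markers rose, Fabp4 (0.89, adjusted p = 0.0460), a call lost under 14 of the alternatives, while 6 of 7 had changes above 0, with a median of 0.85. Their mean log2 level was 6.84 to 7.04 in NTB and 6.76 to 8.35 in C26, so that the groups overlapped. Of 10 macrophage markers 1 rose there, Cd68 (0.74), 9 had changes above 0 with a median of 0.33, and the mean levels overlapped at 6.58 to 7.13 in NTB and 6.48 to 7.50 in C26. Of 5 blood markers 3 rose in gastrocnemius, with mean levels of 7.98 to 8.13 in NTB and 8.78 to 9.28 in C26. The part of fat, macrophages and blood in the gastrocnemius values was not tested. Without C26 gastrocnemius replicate 3, 6 tendon markers fell and 1 rose, 1 fibroblast marker fell and 1 rose, 4 endothelial and 3 blood markers rose, 1 macrophage marker rose and 0 adipocyte markers were called in gastrocnemius. Of all genes 5.81% fell and 11.5% rose in that fit. In NTB and C26 gastrocnemius 5 of 6 cartilage markers were dim.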

How the data were processed

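Each of the 12 arrays was a 1-colour Affymetrix mouse gene array. The values analysed were the authors' deposited log2 expression values, after RMA. The submitters' processing notes name RMA, GCOS, Partek and the build mm8 but give no version or role. The log2 scale was read from the values. In a further deposited file, 12 value columns did not carry the sample names and were not used, and only its gene symbols were taken. These stop after 7 characters, and of 7122 symbols of that length 5269 could be completed from the RefSeq gene table (GRCm38.p6) and 1853 could not. Of 35556 transcripts 21966 were named, standing for 19519 genes, and the transcript with the highest mean was kept for each gene. The collagen rule matched 45 transcripts of 43 genes. Col26a1 is listed under an older name and does not match the rule.

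With R 4.3.3 and limma 3.58.1, 4 group means were fitted to all 12 arrays with eBayes and a variance trend (8 residual degrees of freedom, with a median prior of 6.84). Tests were two-sided, and p-values computed here from the deposited values received the Benjamini-Hochberg adjustment over 19519 genes. The comparison of NTB heart with NTB gastrocnemius was added later. The fit was tested on simulated data. The members, gene lists and tests were chosen with earlier results of these data known. Collagens were named where called in a tumour comparison or in the difference of effects, or where they were type I, III, IV or VI main chains, and related genes by the smallest p within each list. Genes named beside these were chosen after their values were seen. Of the related lists, Adamts14, Aspn and Gp6 had no value here. Same-numbered C26 and NTB arrays deviated together in gastrocnemius (correlations 0.313, 0.331 and 0.498), and not in heart (0.0919, -0.0415 and 0.0161). The pairing in gastrocnemius comes from the data alone, since the labels give only the number. Alternatives were other normalizations, filters, gene summaries and variance models, each muscle alone, array weights, the replicate block and leaving out each array.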

Additional observations from a re-analysis of the deposited data

Results flagged for a closer look

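The tumour effect differed between gastrocnemius and heart for 9 collagens by the test of the difference itself. The differences, gastrocnemius effect minus heart effect on the log2 scale, were -3.16 for Col1a1, -2.61 for Col1a2, -2.23 for Col3a1 and -1.84 for Col6a3. They were -1.27 for Col12a1, -1.24 for Col6a1, -0.91 for Col6a2, -0.88 for Col5a2 and -0.77 for Col5a1. The adjusted p values of limma ran from 6.39e-05 for Col1a2 to 0.0296 for Col6a2. All 9 genes fell in gastrocnemius, and in heart 1 of them, Col6a3, was called, in the other direction. The muscles came from separate cohorts, and muscle and cohort cannot be told apart.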

How the results depend on the processing

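Of 22 called collagen results, 14 were kept under every alternative that was run, 8 were lost under at least 1, and 0 changed direction. The 12 falls in gastrocnemius became 7 with each muscle fitted alone and 21 with array weights, and ranged from 11 to 17 with arrays left out in turn. The 0 rises there stayed 0 when arrays were left out. In heart the 1 rise became 5 with each muscle fitted alone, 5 with array weights, 3 with the replicate block within each muscle, 2 with a filter on dim genes, 2 with a robust variance trend and 0 with all transcripts tested, and ranged from 0 to 2 with arrays left out. The 0 falls in heart became 1 with each muscle fitted alone, 1 with array weights and 1 with the replicate block within each muscle, in each case Col8a1, and ranged from 0 to 1 with arrays left out. The 9 differences became 15 with array weights and ranged from 7 to 10 with arrays left out, and they have no value with each muscle fitted alone. With the replicate number as 1 block over both muscles the counts were 12 and 0 in gastrocnemius, 0 and 1 in heart, and 9 for the difference. The replicate block within each muscle, added after the data were seen, gave 14 falls in gastrocnemius and 10 differences. Col5a2 was lost in gastrocnemius without NTB replicate 2 and with the muscles fitted alone, and Col5a1, Col11a1 and Col15a1 were lost there only with the muscles fitted alone. Over all genes gastrocnemius had 2311 calls and heart 629, against 903 and 2212 with each muscle fitted alone, and 4272 and 2080 with array weights. The cause of the differences between settings was not tested. Signal near background limits what can be read from Col4a6, Col10a1 and Col19a1.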

Other observations

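Col6a5 and Col6a6 each had a further transcript on the array with a lower mean. For Col6a6 it changed by -0.47 in gastrocnemius and -0.05 in heart, beside -0.14 and 0.09 for the transcript that was kept. For Col6a5 it changed by -0.03 and 0.29, beside -0.36 and 0.13. Neither gene was called.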
